A study of Homo sapiens with 18 samples.

Results

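The 8 Lsm ring genes LSM1 to LSM8 encode small RNA-binding proteins that assemble as heteroheptameric rings. The rule takes them by name, all 8 symbols of the family, and all 8 were found among the 35168 Ensembl genes of the deposited tables. RNA was sequenced from H1, a line of human embryonic stem cells (hESCs), either as cells with a CRISPR/Cas9-made single-base deletion in USB1 (USB1 mutant) or as the wild-type parent (WT). Cells were taken at D0 (undifferentiated hESCs), at D16 of a serum-free hematopoietic differentiation (hematopoietic progenitors, CD34+/CD45+ in the study) and at D30 (mature blood cells), with 3 libraries for each genotype and day and 18 in all. The mutant hESCs were picked by hand from cells seeded at low density, so differences between the genotypes cannot be told apart from differences between these cell lines, and the labels give no further treatment in any group. USB1 encodes an exonuclease known to trim the oligouridine tail of U6 snRNA, the RNA that the nuclear Lsm ring holds.

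Each ring has 7 subunits around a central pore. LSM2 to LSM7 are shared by both rings. LSM8 completes the nuclear ring, which binds the oligouridine 3′ end of U6, protects it and helps it pair with U4 in the spliceosome cycle. LSM1 takes the place of LSM8 in the cytoplasmic ring, which with PATL1 binds the 3′ end of deadenylated mRNAs and activates their decapping, so LSM1 is the member that does not belong to the ring on U6.

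U6 itself was not measured, since 0 of the 1319 genes annotated under an RNU6 name were in the tables. The values below concern the mRNAs of the proteins that bind it.

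The members lie on 6 human chromosomes (GRCh38, GENCODE v44). LSM8 (ENSG00000128534) is at chr7:118184144-118204035 on the plus strand and LSM5 (ENSG00000106355) at chr7:32485338-32495283 on the minus strand. LSM4 (ENSG00000130520) is at chr19:18306236-18323112 and LSM7 (ENSG00000130332) at chr19:2321520-2328611, both on the minus strand. LSM3 (ENSG00000170860) is at chr3:14178817-14201122 on the plus strand, LSM6 (ENSG00000164167) at chr4:146175703-146200000 on the plus strand and LSM2 (ENSG00000204392) at chr6:31797396-31806966 on the minus strand. LSM1 (ENSG00000175324) is on chromosome 8. Exons of LSM1 overlap exons of BAG4 and of a long noncoding RNA on the opposite strand. LSM7 lies inside a protein-coding gene on the opposite strand without shared exons. Whether quantification used the strand is not given in the sources used here, so LSM1 counts may hold reads of these neighbours.

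Libraries held 4125125 (USB1 mutant D30 replicate 3) to 19368927 expected counts in all. Some libraries stood apart from their replicates by a chi-square per gene between counts. At D0 this was replicate 1 in both genotypes. WT D0 replicate 1 lay at 15.9 and 22 from the other WT D0 libraries, which were 5.46 apart. USB1 mutant D0 replicate 1 lay at 13 and 13.5 from the other mutant D0 libraries, which were 3.47 apart. WT D16 replicate 3 lay at 36.7 and 34.6 from the other WT D16 libraries, which were 12.1 apart, and USB1 mutant D30 replicate 1 lay at 51.8 and 36.0 from the other mutant D30 libraries, which were 17.5 apart. Markers moved with the days: POU5F1 had 1170 to 1450 TPM at D0 and at most 14.2 TPM later, whereas PTPRC, which encodes CD45, had 240 to 453 TPM at D16, against at most 0.896 TPM at D0. CD34 had at most 2.59 TPM at D30, against 25.5 to 63.0 TPM at D16. The genotypes differed in their blood markers. At D16 the summed level of 10 granulocyte markers was 6670 to 8810 TPM in mutant libraries, against 26800 to 44600 TPM in WT libraries. That of 10 erythroid markers at D30 was 142000 to 190000 TPM in mutant libraries, against 43100 to 53200 TPM in WT libraries. The mRNA of USB1 itself had 31.0 to 85.8 TPM in mutant libraries and 35.7 to 99.7 TPM in WT libraries, and it was called different between the genotypes on none of the 3 days (log2 fold changes of 0.11, −0.09 and −0.24, padj = 0.623, 0.668 and 0.432). The deletion does not have to change the mRNA level, so these values do not check the labels.

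Levels between genes are given in TPM, which is scaled by transcript length and by library. LSM7 and LSM4 stood far above the other members in the hESCs. At D0 the mean level of LSM7 was 352 ± 4.42 TPM in mutant cells and 299.8 ± 12.1 TPM in WT cells (SD, n = 3 each), and that of LSM4 was 307 ± 16.4 TPM in mutant cells and 274 ± 10.9 TPM in WT cells. LSM7 was above 97.7% of the genes tested in mutant D0 cells and above 97.1% in WT D0 cells. LSM8, the subunit that defines the U6 ring, had only 23.6 ± 7.11 TPM in mutant and 18.3 ± 3.74 TPM in WT D0 cells, a level above 59.8% and 50.4% of the genes tested. At D0 the mean TPM of LSM7 and LSM8, which share the nuclear ring, thus differed by more than 10-fold in both genotypes. TPM divides by transcript length, whose mean at D0 was 220 nucleotides for LSM7 in mutant and 221 in WT cells. For LSM8 the mean was 2878 ± 851 in mutant and 3593 ± 318 in WT cells. Counts scaled by library size alone (CPM) were closer at D0, at 56.9 and 47.0 in mutant and 44.5 and 43.7 in WT cells. The TPM gap was smaller on later days, with D30 means of 52.9 and 20.9 in mutant and 72.0 and 17.5 in WT cells.

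The order of the 8 levels was nearly the same in both genotypes at D0 and D30. At D16 it differed below LSM1. There LSM8 ranked 5 in mutant cells (34.0 ± 2.36 TPM, overlapping LSM6) and 7 in WT cells (22.2 ± 0.42 TPM). At D0 the order ran LSM7, LSM4, LSM5, LSM1, LSM6 and LSM3, with LSM8 and LSM2 lowest. The D0 libraries of LSM1 and LSM6, of LSM3 and its lower neighbour, and of LSM8 and LSM2 overlapped. In mutant D16 cells LSM7 with 222 ± 9.73 TPM lay above LSM4 with 167 ± 11.9 TPM in every library, while in WT D16 cells LSM7 with 158 ± 34.2 TPM and LSM4 with 113 ± 22.7 TPM overlapped. At D30 the top pair was reversed. LSM4 had 86.4 ± 14.9 TPM in mutant and 109.5 ± 8.82 TPM in WT cells, and LSM7 had 52.9 ± 11.5 TPM in mutant and 72.0 ± 2.49 TPM in WT cells. LSM3 had the lowest mean at D30, with 4.87 ± 2.34 TPM in mutant and 5.29 ± 1.13 TPM in WT cells, above only 25.1% and 23.6% of the genes tested. Its libraries overlapped those of LSM2, which ran from 2.86 to 10.6 TPM in mutant and from 0 to 12.6 TPM in WT cells.

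Summed over the 8 genes, LSM2 with its zeros included, the level was lower on each later day. The sum was 907 ± 49.2 TPM in mutant and 833 ± 53.7 TPM in WT cells at D0, 631 ± 37.9 TPM in mutant and 471 ± 59.0 TPM in WT cells at D16, and 244 ± 38.5 TPM in mutant and 304 ± 7.98 TPM in WT cells at D30. The mutant libraries of D16 (608 to 674 TPM) lay above those of WT (435 to 539 TPM), and those of D30 (202 to 277 TPM) lay below those of WT (298 to 313 TPM). The D30 gap was not equally large in all fits. These differ in scaling, in the use of lengths and in the test, and the cause was not tested. In the fit on TMM-scaled counts below, LSM4 and LSM7, which make up most of the sum, both had a log2 fold change of −0.06 at D30, against −0.35 and −0.46 in limma on log2(TPM + 0.5) (padj = 0.207 and 0.141), and neither was called in either fit. In the count fit with transcript lengths as offsets, the log2 fold change was −0.083 for LSM4 and −0.18 for LSM7. The sums are shares of all RNA. The erythroid markers named above took far more of the RNA in mutant than in WT D30 libraries. Their part in the gap was not tested. In bulk samples, fewer cells of a type and less RNA per cell cannot be told apart.

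**Figure D1:**
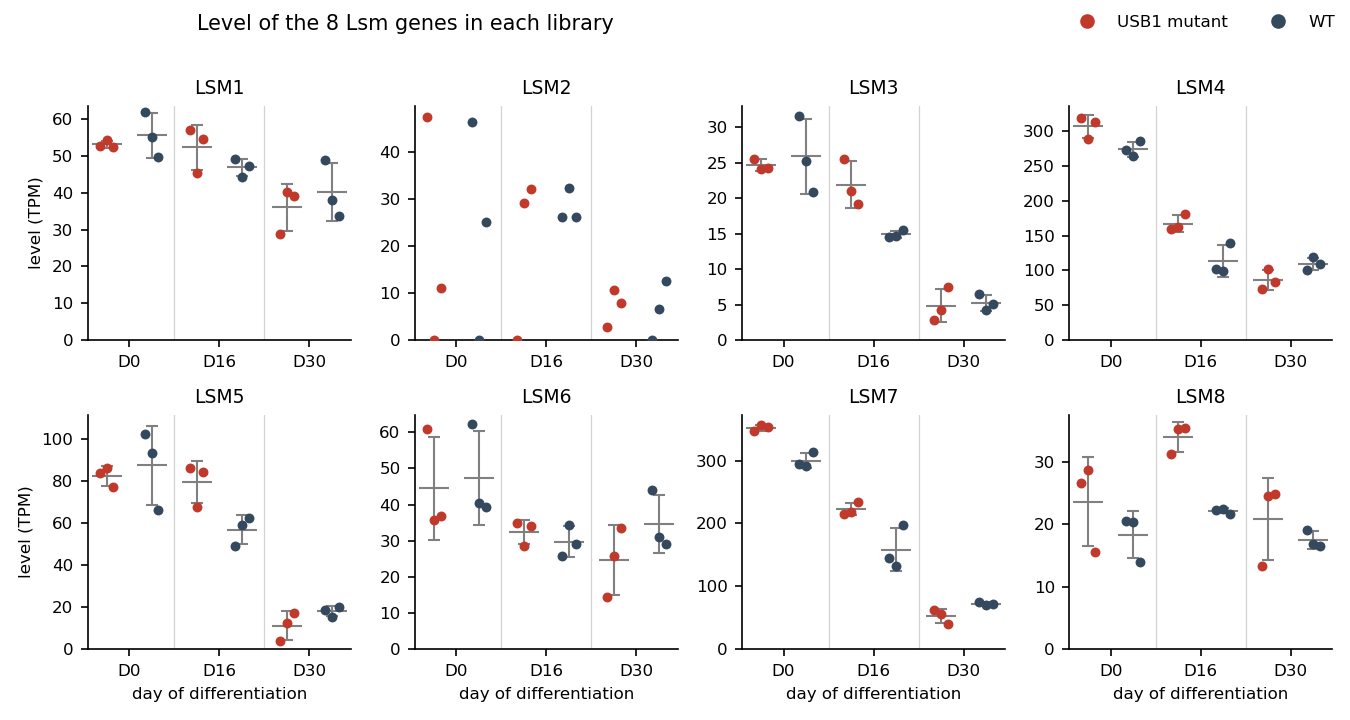
Level in TPM (y axis, linear from 0) of each of the 8 Lsm genes in each library by day (x axis), with USB1 mutant libraries left of WT libraries. Points are libraries and grey bars are mean ± SD (n = 3), left out for LSM2, which was listed at 0 in 4 libraries. LSM7 and LSM4 have the highest levels on every day, and LSM3, LSM5 and LSM7 are lowest at D30.

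The first question was whether the genes of the ring differed between USB1 mutant and WT cells on each day. Genes were tested with edgeR's quasi-likelihood test on the counts, and padj is the Benjamini-Hochberg adjusted p over all genes tested, with a threshold of 0.1. Counts per gene are given as CPM, on library sizes with TMM factors over all 18 libraries. Each genotype fold comes from the fit of its own day. Folds are log2 values of mutant over WT ± standard error. The sources used here do not say whether the 3 libraries of a group are separate cultures. The p-values therefore reflect only how far these libraries spread, which may be technical.

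In undifferentiated cells 0 of the 8 genes were called, beside 1.07% of all genes tested that were higher and 1.87% that were lower in the mutant. DESeq2 and limma-voom also called 0. At an unadjusted p under 0.05, 2 of the 8 passed, LSM7 and LSM4. The share of all genes passing this level was not counted, so the number has nothing to be read against. LSM7 had 59.4, 54.5 and 56.7 CPM in mutant libraries, against 44.4, 40.5 and 48.6 CPM in WT libraries (0.36 ± 0.10, padj = 0.146). LSM4 had 180, 150 and 170 CPM in mutant libraries, against 143, 128 and 139 CPM in WT libraries (0.29 ± 0.10, padj = 0.211). In both genes every mutant library lay above every WT library. These were the only 2 of the 8 genes whose libraries did not overlap, and 21.3% of all genes tested did not overlap. With the replicate number as a block, both passed the threshold (padj = 0.0438 for LSM7 and 0.0351 for LSM4), and so did many more genes, 1718 instead of 432. The folds of LSM1, LSM3, LSM5, LSM6 and LSM8 lay between 0.03 and 0.10.

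In D16 progenitors LSM4, LSM3 and LSM8 were higher in the mutant. That is 3 of 8 genes, beside 13.1% of all genes tested that were higher and 15.3% that were lower, and 0 of the 8 genes were lower. LSM8, which makes the ring nuclear, had 101, 85.6 and 81.9 CPM in mutant libraries, against 71.8, 66.7 and 59.1 CPM in WT libraries (0.40 ± 0.14, padj = 0.0610). LSM3, one of the shared subunits, had 67.8, 57.1 and 48.7 CPM in mutant libraries, against 38.6, 40.7 and 44.8 CPM in WT libraries (0.44 ± 0.15, padj = 0.0566). LSM4, a shared subunit with an arginine- and glycine-rich tail, had 106, 108 and 118 CPM in mutant libraries, against 63.0, 67.4 and 97.4 CPM in WT libraries (0.51 ± 0.16, padj = 0.0471). In all 3 genes the lowest mutant library lay above the highest WT library, as in 38.1% of all genes tested, and the WT libraries of LSM4 were the more scattered ones.

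The other subunits at D16 did not pass the threshold. LSM5 (0.32 ± 0.16, padj = 0.189) and LSM7 (0.35 ± 0.17, padj = 0.178) had folds close to those called, and LSM7 passed with the replicate block (padj = 0.0806). Without WT D16 3, which stood apart from its replicates, both passed, LSM7 with a fold of 0.57 (padj = 0.0112) and LSM5 with one of 0.45 (padj = 0.0597). The genes called in all were then 5778 instead of 4135. LSM1, the subunit of the cytoplasmic ring, had 31.5, 26.3 and 28.5 CPM in mutant libraries, against 28.2, 26.1 and 28.2 CPM in WT libraries (0.03 ± 0.14, padj = 0.902). LSM6 had 11.5, 11.5 and 12.1 CPM in mutant libraries, against 11.2, 14.6 and 11.2 CPM in WT libraries (−0.11 ± 0.18, padj = 0.688). Over the 8 genes the median fold at D16 was 0.34, and over all genes tested it was 0.01.

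The D16 calls were not stable when 1 library was left out, and the genes called in all then ran from 2450 to 5778. The folds stayed positive, from 0.322 to 0.561 for LSM3, from 0.399 to 0.715 for LSM4 and from 0.315 to 0.477 for LSM8. The LSM3 call was lost without WT 1, WT 2, mutant 1 or mutant 2 (padj = 0.126 to 0.177), that of LSM8 without WT 2, WT 3, mutant 1 or mutant 2 (0.104 to 0.174), and that of LSM4 without any 1 of 5 libraries, all but WT 3 (0.104 to 0.177). The count of Lsm genes higher then ran from 0 to 4. The LSM3 call was also lost in a fit over all 18 libraries (padj = 0.176) and that of LSM4 with transcript lengths as offsets (0.104), while limma on log2(TPM + 0.5) added LSM5 (0.0599) and LSM7 (0.0566). Proliferation genes moved the same way at D16, with 5 of 15 higher and 0 lower in the mutant and a summed level of 1510 to 1870 TPM in mutant libraries, against 1200 to 1450 TPM in WT libraries, and their part in the result was not tested. Cell type markers moved at D16 too. Of the megakaryocyte markers 5 of 6 were higher and 0 lower (856 to 890 TPM in mutant, against 440 to 521 TPM in WT libraries), of the endothelial markers 4 of 6 higher and 0 lower (160 to 179 TPM in mutant, against 112 to 138 TPM in WT libraries), of the erythroid markers 4 of 10 higher and 1 lower (2790 to 4800 TPM in mutant, against 1240 to 2220 TPM in WT libraries), and of the monocyte markers 3 of 8 higher and 0 lower. Of the granulocyte markers 9 of 10 were lower and 0 higher. Their part in the result was not tested.

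In D30 blood cells LSM8 alone was higher, which is 1 of 8 genes, beside 10.8% of all genes tested that were higher and 9.75% that were lower. It had 49.9, 64.2 and 57.0 CPM in mutant libraries, against 42.3, 38.1 and 41.3 CPM in WT libraries (0.49 ± 0.15, padj = 0.0634). Its libraries did not overlap, nor did those of 35.8% of all genes tested. The call was lost without any 1 of 5 libraries, all but mutant 1 (padj = 0.124 to 0.204), with transcript lengths as offsets (padj = 0.247) and in limma on log2(TPM + 0.5) (fold of 0.20, padj = 0.666). The 6 other genes with a fold had values from −0.22 for LSM5 to 0.20 for LSM1, and their padj ran from 0.515 to 0.887. LSM5 and LSM3 had the largest standard errors, 0.37 and 0.36. LSM3 had 8.62, 11.4 and 22.7 CPM in mutant libraries, against 14.8, 9.73 and 12.6 CPM in WT libraries, and the highest value was in the shallowest library.

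**Figure D2:**
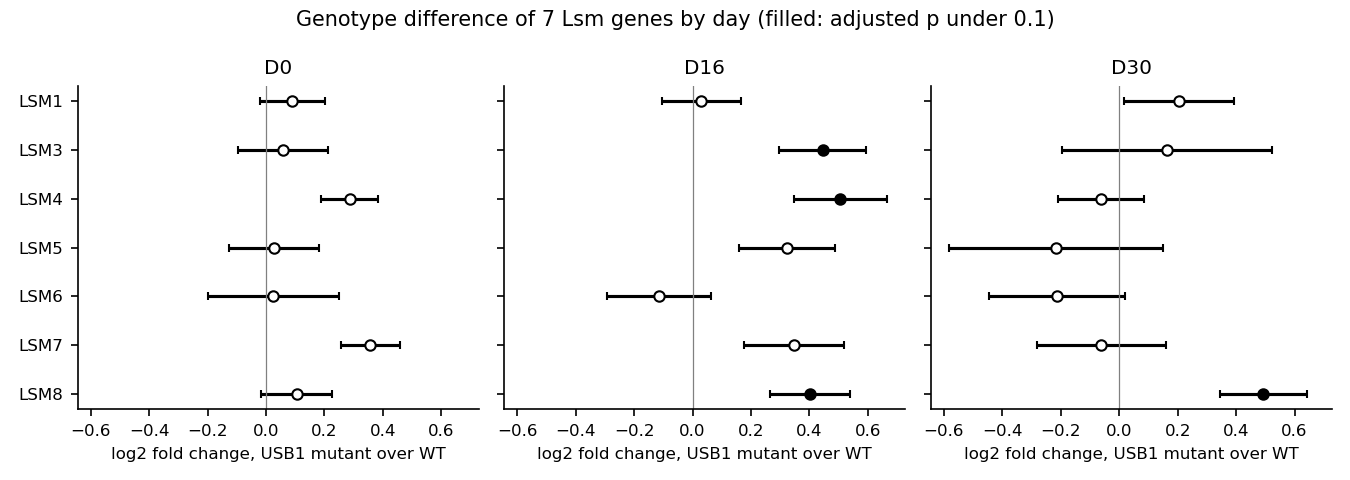
Log2 fold change of USB1 mutant over WT (x axis) for 7 Lsm genes (y axis) at D0, D16 and D30, with bars of 1 standard error from edgeR. Filled points passed an adjusted p of 0.1, which were LSM3, LSM4 and LSM8 at D16 and LSM8 at D30.

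Whether these genotype differences changed between days was tested with an interaction term over all 18 libraries. From D0 to D16 the interaction was called in 0 of 8 genes, beside 3.86% of all genes tested higher and 3.75% lower. The smallest padj was 0.356, for LSM8 (0.34 ± 0.19), and DESeq2 and limma-voom also called 0. At an unadjusted p under 0.05, 0 of 8 passed, a level at which all genes were not counted. From D16 to D30 it was called in LSM4 alone (−0.61 ± 0.21, padj = 0.0607), beside 10.3% of all genes tested higher and 10.2% lower. At D30 the LSM4 libraries of the genotypes overlapped, with 52.5, 64.7 and 60.2 CPM in mutant libraries, against 54.9, 63.9 and 66.6 CPM in WT libraries. The call was lost without any 1 of 6 of the 12 libraries of these days (WT D16 1, WT D16 2, mutant D16 3, WT D30 2, WT D30 3 or mutant D30 1, padj = 0.112 to 0.143) and with transcript lengths as offsets (0.113). Of the 15 proliferation genes, 11 had a lower interaction over the same step, and their part in the result was not tested.

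Next, the genes were followed along the differentiation within each genotype, with the later day over the earlier one. From D0 to D16, LSM4 and LSM7 fell and LSM8 rose in both genotypes. That makes 1 of 8 genes higher and 2 lower in mutant cells, beside 36.9% of all genes tested higher and 36.0% lower, and the same counts in WT cells, beside 37.0% higher and 39.3% lower. LSM8 had 101, 85.6 and 81.9 CPM at D16, against 48.8, 47.1 and 45.0 CPM at D0 in mutant cells (0.93 ± 0.14, padj = 7.66e-06). In WT cells it had 71.8, 66.7 and 59.1 CPM at D16, against 50.4, 44.5 and 36.1 CPM at D0 (0.59 ± 0.14, padj = 0.000777). LSM8 was the only one of the 8 genes called higher in progenitors than in hESCs, and in each genotype every D16 library lay above every D0 library. The share of all genes without overlap between days was not counted, here or for the step from D16 to D30.

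LSM4 went the other way over the same step. It had 106, 108 and 118 CPM at D16, against 180, 150 and 170 CPM at D0 in mutant cells (−0.59 ± 0.15, padj = 0.00152). In WT cells it had 63.0, 67.4 and 97.4 CPM at D16, against 143, 128 and 139 CPM at D0 (−0.84 ± 0.15, padj = 4.78e-05). LSM7 fell in mutant cells (−0.43 ± 0.16, padj = 0.0276) and in WT cells (−0.45 ± 0.16, padj = 0.0200), and the WT call was lost without WT D16 2 (padj = 0.123). LSM1, LSM3, LSM5 and LSM6 were not called at this step in either genotype.

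From D16 to D30 most of the ring genes fell. In mutant cells 0 of 8 genes were higher and 5 were lower, beside 34.7% of all genes tested higher and 35.1% lower. In WT cells 1 was higher and 6 were lower, beside 31.6% higher and 35.1% lower. The largest falls were those of LSM3, LSM5 and LSM7, all shared subunits. LSM5 had 4.66, 9.42 and 13.6 CPM at D30, against 48.6, 36.5 and 42.3 CPM at D16 in mutant cells (−2.29 ± 0.27, padj = 9.64e-07). In WT cells it had 10.2, 8.85 and 12.3 CPM at D30, against 26.9, 33.0 and 39.0 CPM at D16 (−1.67 ± 0.26, padj = 2.12e-05).

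LSM3 fell in mutant cells (−2.12 ± 0.26, padj = 1.89e-06) and in WT cells (−1.76 ± 0.26, padj = 1.24e-05). LSM7 fell in mutant cells (−1.62 ± 0.18, padj = 3.75e-07) and in WT cells (−1.19 ± 0.17, padj = 1.15e-05). In both genes and both genotypes every D30 library lay below every D16 library, with no share of all genes to set beside this. LSM8 also fell in mutant cells (−0.65 ± 0.14, padj = 0.000462) and in WT cells (−0.70 ± 0.14, padj = 0.000251). Its mutant D30 libraries, at 49.9 to 64.2 CPM, still lay above the mutant D0 libraries, at 45.0 to 48.8 CPM, a step that was not tested. LSM4 fell in mutant cells (−0.90 ± 0.15, padj = 4.14e-05). Its WT libraries overlapped between these days (−0.30 ± 0.15, padj = 0.0886), and the WT call was lost without WT D16 3, WT D30 1 or WT D30 2 (padj = 0.123 to 0.628), without a count filter (0.201), with RLE scaling (0.105), with DESeq2 (0.103) and with limma-voom (0.109).

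LSM1 and LSM6 had other courses. LSM1 had 21.8, 25.3 and 28.0 CPM at D30, against 31.5, 26.3 and 28.5 CPM at D16 in mutant cells, which was not called (−0.21 ± 0.14, padj = 0.198). In WT cells it had 25.8, 19.7 and 19.4 CPM at D30, against 28.2, 26.1 and 28.2 CPM at D16 (−0.35 ± 0.14, padj = 0.0396), without overlap, a call lost without WT D16 1, WT D30 2 or WT D30 3 (padj = 0.135 to 0.149) and without a count filter (0.146). With transcript lengths as offsets the fall of LSM1 in mutant cells was called (−0.50, padj = 0.0217). LSM6 was higher in WT cells, with 19.0, 16.1 and 19.1 CPM at D30, against 11.2, 14.6 and 11.2 CPM at D16 (0.54 ± 0.22, padj = 0.0441). This depended on the transcript lengths described below: with them as offsets the fold was −0.07 (padj = 0.877), and leaving out WT D16 3 or WT D30 3 also ended the call (padj = 0.127 and 0.106). In mutant cells LSM6 had a fold of 0.40 ± 0.23 (padj = 0.140), of −0.38 with lengths (padj = 0.321) and of 0.44 where a gene needed 5 CPM in 3 libraries (padj = 0.0906).

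Proliferation genes fell at this step as a list, with 15 of 15 lower in both genotypes and a summed level at D30 of 329 to 527 TPM in mutant libraries and 448 to 707 TPM in WT libraries. Megakaryocyte markers fell as well, with 6 of 6 lower in both genotypes. Granulocyte markers were lower in 4 of 10 cases in mutant and in 9 of 10 in WT cells, and endothelial markers in 5 of 6 in mutant and in 3 of 6 in WT cells. Monocyte markers rose, in 7 of 8 cases in mutant and in 8 of 8 in WT cells, and so did erythroid markers, in 8 of 10 in mutant and in 7 of 10 in WT cells, with 1 lower in each. The part of these shifts in the fall of the Lsm genes was not tested.

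**Figure D3:**
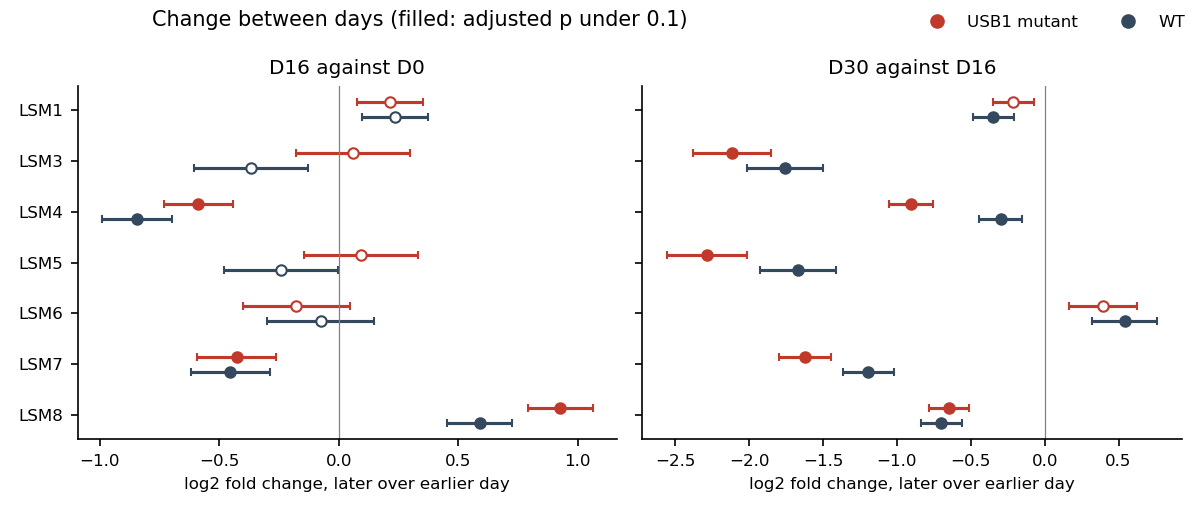
Log2 fold change of the later over the earlier day (x axis) for 7 Lsm genes (y axis) in USB1 mutant cells (upper point of each pair) and WT cells (lower point), with bars of 1 standard error from edgeR and filled points where the adjusted p was under 0.1. LSM8 alone was called higher at D16 than at D0, and LSM3, LSM5 and LSM7 fell most from D16 to D30.

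LSM8 and LSM1 tell the rings apart, so their TPM ratio was followed within each library. From counts alone, not divided by transcript length, LSM8 over LSM1 was 1.64 to 3.25 and so above 1 in all 18 libraries. The TPM ratio was below 1 in all 18. At D16 the ratio was 0.548, 0.774 and 0.648 in mutant libraries, against 0.455, 0.508 and 0.459 in WT libraries, with no overlap (1.37-fold, exact two-sided permutation p = 0.1, adjusted p = 0.233 over 7 comparisons). With 3 libraries against 3 this test cannot go below 0.1. At D0 it was 0.505, 0.529 and 0.295 in mutant libraries, against 0.331, 0.370 and 0.281 in WT libraries (exact p = 0.3, adjusted p = 0.4). At D30 it was 0.461, 0.610 and 0.635 in mutant libraries, against 0.392, 0.443 and 0.488 in WT libraries (exact p = 0.2, adjusted p = 0.35). Within each replicate number the mutant TPM ratio was above the WT TPM ratio, in 3 of 3 pairs on each day. The exact paired p was 0.25, the smallest that 3 pairs allow, and at D30 the numbers were not found to pair libraries. From counts alone this order held in every pair at D16 only. The count ratios were 1.92, 1.96 and 1.82 in mutant and 1.92, 1.99 and 1.7 in WT libraries at D0. At D16 they were 3.19, 3.25 and 2.87 in mutant and 2.55, 2.56 and 2.09 in WT libraries. At D30 they were 2.29, 2.54 and 2.04 in mutant and 1.64, 1.94 and 2.13 in WT libraries.

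Between days the TPM ratio was higher at D16 than at D0 in every library, by 1.52-fold in mutant and 1.45-fold in WT cells (exact p = 0.1 in both, adjusted p = 0.233). From D16 to D30 the libraries overlapped in both genotypes (exact p = 0.4, adjusted p = 0.4, log2 differences of −0.21 in mutant and −0.11 in WT cells). The transcript length of LSM8 enters this ratio. Taken from counts alone, the log2 difference between the genotypes at D0 was 0.02 instead of 0.40, and that between D16 and D0 in WT cells was 0.36 instead of 0.54. The D30 step was −0.44 in mutant and −0.34 in WT cells from counts alone, where the mutant ratios of 2.29, 2.54 and 2.04 at D30 lay below those of 3.19, 3.25 and 2.87 at D16.

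**Figure D4:**
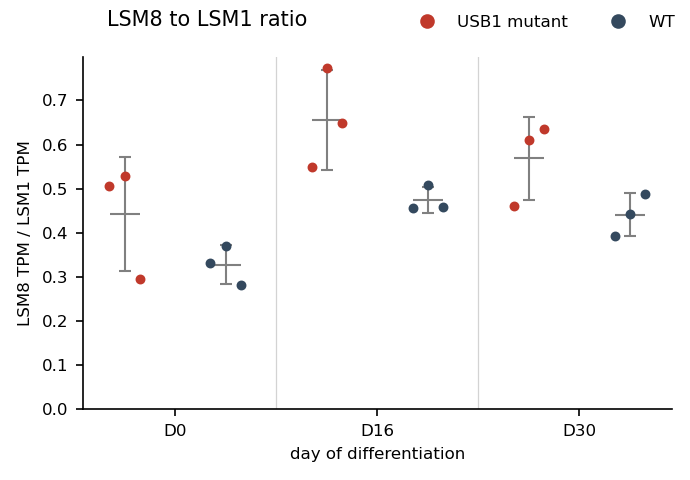
Ratio of LSM8 TPM to LSM1 TPM (y axis, from 0) in each library by day (x axis), USB1 mutant left of WT. Points are libraries and grey bars are mean ± SD (n = 3). The D16 libraries lie above the D0 libraries of the same genotype, and at D16 every mutant library lies above every WT library.

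The deposited effective length is the average transcript length of a gene, weighted by its transcripts and reduced by the fragment length of the library. No Lsm gene had a length that differed between the genotypes in limma on log2 length, with 0 of 8 called on each day. Of all genes tested, 0.00680% were called at D0, 0.0207% at D16 and 0.00701% at D30, which is 1, 3 and 1 genes. At an unadjusted p under 0.05 the count was 0 at D0, 1 at D16 (LSM4, 771 ± 9.79 nucleotides in mutant and 740 ± 18.6 in WT cells, adjusted p = 0.728) and 0 at D30. The share of all genes at this unadjusted level was not counted.

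Lengths along the differentiation are given as a description. In 6 of the 8 genes (LSM1, LSM2, LSM3, LSM5, LSM6 and LSM7) every D30 library had a longer value than every D0 and D16 library. The same held for 19.1% of all genes tested, and for 24.5% once lengths were centred on the median of each library, which left these 6 of 8 genes above. The median length over genes went the other way, at 1730 to 1840 nucleotides at D30 and 1880 to 1930 before. LSM6 transcripts had 367 to 442 nucleotides in mutant and 386 to 468 in WT cells at D0, 384 to 459 in mutant and 411 to 507 in WT cells at D16, and 635 to 876 in mutant and 588 to 817 in WT cells at D30. Among the 8 genes this shift and that of LSM5 were the largest in proportion. LSM5 transcripts had 603 to 681 nucleotides in mutant and 599 to 724 in WT cells before D30, and 804 to 1263 in mutant and 748 to 783 in WT cells at D30. The value of 1263 came from mutant D30 1, which also had the lowest LSM5 count of all libraries, 46. LSM8 lengths scattered within groups, from 2356 to 3928 nucleotides among the mutant D30 libraries and from 2367 to 3861 among the mutant D0 libraries, and no day stood apart. LSM3 stayed between 3049 and 3125 nucleotides in all libraries. LSM7 was the shortest member, with 212 to 236 nucleotides before D30 and 258 to 290 at D30.

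**Figure D5:**
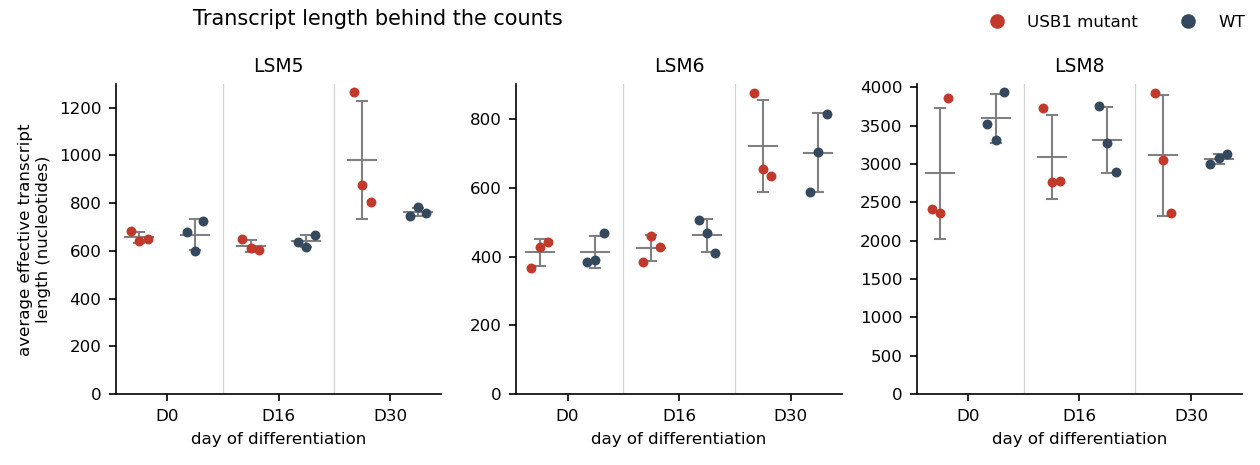
Average effective transcript length in nucleotides (y axis, from 0) of LSM5, LSM6 and LSM8 in each library by day (x axis), USB1 mutant left of WT. Points are libraries and grey bars are mean ± SD (n = 3). LSM6 and LSM5 lie highest at D30, and LSM8 spreads within groups on each day.

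LSM2, a shared subunit encoded in the major histocompatibility complex, could not be followed in the same way. It was listed at 0 in mutant D0 2, mutant D16 1, WT D0 2 and WT D30 1, while the other libraries of the same groups had up to 233 counts. At D0 it had 220, 0 and 62.4 counts in mutant libraries, against 233, 0 and 92.3 in WT libraries. At D16 it had 0, 191 and 214 counts in mutant libraries, against 109, 267 and 192 in WT libraries. At D30 it had 16.7, 66.0 and 18.1 counts in mutant libraries, against 0, 56.1 and 57.1 in WT libraries. Such jumps were common around it: of 100 genes tested in the 5 megabases of chromosome 6 around this complex, 25 (25%) had a replicate under 0.1 of another of at least 50 counts in the same group, against 277 of 16729 genes elsewhere (1.66%). LSM2 was the only member among them. The cause was not tested, and no fold of LSM2 is given.

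The promoters of LSM8, LSM3 and LSM4 are shown because these genes were higher together at D16. Each is 250 bases before to 50 bases after the start of the gene, from RefSeq (GRCh38.p14), and capitals mark the core motif of ETS factors, CCGGAA, searched on both strands, so that it also reads TTCCGG. The windows are chr7:118183914-118184213 (plus strand), chr3:14178567-14178866 (plus strand) and chr19:18323027-18323326 (minus strand).
LSM8: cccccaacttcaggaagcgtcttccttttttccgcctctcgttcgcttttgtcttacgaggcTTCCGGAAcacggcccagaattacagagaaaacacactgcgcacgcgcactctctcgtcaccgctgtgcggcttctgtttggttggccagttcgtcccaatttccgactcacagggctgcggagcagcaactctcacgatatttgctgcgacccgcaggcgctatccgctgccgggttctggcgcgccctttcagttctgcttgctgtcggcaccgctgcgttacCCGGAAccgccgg
LSM3: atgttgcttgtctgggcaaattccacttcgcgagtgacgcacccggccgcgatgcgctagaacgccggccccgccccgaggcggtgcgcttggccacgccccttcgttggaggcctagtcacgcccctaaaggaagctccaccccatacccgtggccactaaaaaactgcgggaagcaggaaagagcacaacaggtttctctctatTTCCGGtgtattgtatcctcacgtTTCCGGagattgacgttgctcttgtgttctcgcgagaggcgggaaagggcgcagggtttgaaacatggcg
LSM4: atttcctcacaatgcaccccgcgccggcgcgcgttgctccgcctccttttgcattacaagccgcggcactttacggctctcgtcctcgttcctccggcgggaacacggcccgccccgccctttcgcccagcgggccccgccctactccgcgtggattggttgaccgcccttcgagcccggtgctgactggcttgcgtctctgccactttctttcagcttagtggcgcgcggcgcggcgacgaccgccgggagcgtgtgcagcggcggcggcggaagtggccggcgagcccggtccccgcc
CCGGAA occurs 3 times in the LSM8 window, where 2 of the matches overlap on opposite strands, 2 times in that of LSM3 and 0 times in that of LSM4. Of 35116 promoter windows of the same length, 17.2% hold it. LSM5, which was not called at D16, has 1 match in each of its 2 RefSeq windows, and LSM2 and LSM7 have 0. The GC box GGGCGG, searched on both strands and present in 45% of windows, occurs 4 times in the LSM4 window, 4 times in one LSM5 window and 0 times in the other, 1 time in those of LSM2, LSM3 and LSM7 and 0 times in that of LSM8. The LSM7 window holds 1 match to the YY1 motif AAGATGGCG (1.75% of windows). Windows were matched for 6 of the 8 genes, and a match is a description of letters and not a bound site.

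Lists of genes that work with the rings were set beside the members. For comparison, 1.07% of all genes tested were higher and 1.87% lower in the mutant at D0. At D16 the shares were 13.1% and 15.3%, and at D30 they were 10.8% and 9.75%. The Sm proteins form the ring on the other spliceosomal snRNAs. At D16, 2 of 7 were higher and 0 lower, with a median fold of 0.35. SNRPB had 236, 263 and 269 CPM in mutant libraries, against 80.7, 88.5 and 138 CPM in WT libraries (1.28 ± 0.18, padj = 0.00128), and SNRPD1 was also higher (0.59 ± 0.18, padj = 0.0441). SNRPB was the only Sm gene called at D0 (0.41 ± 0.08, padj = 0.0482), and 0 of 7 were called at D30, where SNRPB had a fold of 0.40 (padj = 0.138). SNRPD2 was not called on any day (padj = 0.371, 0.152 and 0.616), nor was SNRPG at D0 (0.621).

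Factors that process, modify or recycle U6 were higher in 5 of 10 cases at D16 and lower in 0, with a median fold of 0.35. METTL16, which methylates an adenosine of U6, had 51.6, 48.9 and 49.6 CPM in mutant libraries, against 31.8, 30.8 and 37.9 CPM in WT libraries (0.54 ± 0.13, padj = 0.0156). LARP7, which guides ribose methylation of U6, had a fold of 0.48 ± 0.14 (padj = 0.0407), and SART3, which helps U6 to re-enter the cycle, one of 0.36 ± 0.12 (padj = 0.0555). At D30 only MEPCE, which caps U6, was called (0.51 ± 0.16, padj = 0.0766), and SART3 and TUT1, which adds uridines to U6, had padj = 0.111 and 0.138. At D0 0 of 10 were called, and the smallest padj were those of SSB, TENT4B and TUT1, from 0.310 to 0.400.

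In the U4/U6.U5 tri-snRNP list 7 of 16 genes were higher at D16 and 0 lower, with a median fold of 0.29. The smallest padj were those of PRPF3 (0.52 ± 0.13, padj = 0.0164), PRPF31 (0.47 ± 0.14, padj = 0.0371) and PRPF6 (0.39 ± 0.12, padj = 0.0423). PRPF3, which binds U4/U6, was also higher at D30, where it had 87.8, 81.8 and 79.4 CPM in mutant libraries, against 52.9, 52.5 and 53.1 CPM in WT libraries (0.65 ± 0.12, padj = 0.0128). SART1 (0.72 ± 0.18, padj = 0.0333) and PRPF6 (0.43 ± 0.15, padj = 0.0916) were the other 2 of the 3 genes higher at D30. At D0 0 of 16 were called, and SNU13, EFTUD2 and PRPF4 had padj of 0.291 to 0.393.

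Partners of the cytoplasmic ring were taken from a list of decapping and decay genes. In this list 0 of 11 genes were called at D0 and at D30, and 1 was lower at D16. That gene was XRN1, the 5′ to 3′ exonuclease that degrades decapped mRNA, with 140, 116 and 106 CPM in mutant libraries, against 173, 179 and 131 CPM in WT libraries (−0.46 ± 0.16, padj = 0.0699). Its libraries overlapped. PATL1, which binds the Lsm1-7 ring, had folds of −0.28 at D16 (padj = 0.148) and 0.34 at D30 (padj = 0.200), and LSM14A had −0.24 at D16 (padj = 0.250). EDC3, XRN1 and DDX6 at D0 had padj of 0.372 to 0.446, and EDC4 and DCP1A at D30 had 0.121 and 0.140.

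Of 6 other Lsm-domain genes 0 were called at D0 and at D16, and 1 was higher at D30. This was LSM10, a subunit of the U7 snRNP that processes histone mRNA ends, with 84.0, 75.9 and 118 CPM in mutant libraries, against 34.2 to 51.9 CPM in WT libraries (1.09 ± 0.22, padj = 0.0152). GEMIN7, NAA38 and LSM10 at D0 had padj of 0.197, 0.290 and 0.553, LSM12, NAA38 and GEMIN6 at D16 had padj of 0.216 to 0.248, and GEMIN7 and NAA38 at D30 had padj of 0.321 and 0.769.

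Among themselves the members fell into differing profiles over the 18 libraries. LSM3 and LSM5 were the most alike, with Pearson r = 0.98 of log2 CPM, and r = 0.97, 0.81 and 0.79 within the 6 libraries of D0, D16 and D30. LSM4 and LSM7 had r = 0.90 over 18 libraries but −0.47 within D30, and LSM6 had a negative r with every member but LSM2, the lowest being −0.61 with LSM7. Within days this did not hold, since LSM6 had r of 0.25 to 0.88 with the 7 other members at D0, and of 0.84 with LSM3 and 0.93 with LSM5 at D30. All of these are descriptions, since the libraries share 6 groups and their depth.

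Among 12387 other genes of at least 5 CPM, those most like LSM8 over the 18 libraries were SF3B1 (r = 0.950, and 0.88 to 0.94 within days), a core protein of the U2 snRNP, and CRBN (0.943). Most like LSM3 was HNRNPC (0.987, and 0.83 to 0.96 within days), which binds nascent transcripts. The closest to LSM5 were UBE2N (0.989) and VMA21 (0.988), to LSM7 C19orf48P (0.989) and MRPL11 (0.985), and to LSM4 ERI3 and ERAL1 (0.980 each). Within days r was 0.91 to 0.98 for UBE2N and 0.78 to 0.95 for VMA21. It was 0.66 to 0.97 for C19orf48P, 0.29 to 0.99 for MRPL11, 0.46 to 0.95 for ERI3 and 0.75 to 0.97 for ERAL1. LSM1 followed FAF2 (0.852) and CLDND1 (0.851), LSM6 followed UBL3 (0.842) and TDP2 (0.815), and LSM2 had no profile above 0.682 (ZNHIT3, with BCL7C at 0.660). Within days r was 0.73 to 0.92 for FAF2, 0.47 to 0.86 for CLDND1 and 0.64 to 0.85 for UBL3. It was 0.51 to 0.87 for TDP2, 0.34 to 0.82 for ZNHIT3 and 0.45 to 0.92 for BCL7C. The mean of the 8 standardised profiles was closest to SEC61B (0.942), SF3B6 and RSL24D1 (0.939 each), and within days these had r of 0.67 to 0.98.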

How the data were processed

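Per the labels and the methods of the study, rRNA-depleted, strand-specific paired-end libraries were trimmed with Trimmomatic 0.36 and quantified by the authors with Salmon 0.13.1 on Ensembl GRCh38 transcripts. For each day the authors deposited TPM, expected counts (not scaled by abundance) and average effective transcript length per gene in nucleotides, and neither counts nor lengths were normalized between libraries. Whether Salmon used the strand, and the version of DESeq2 that the authors ran, are not given in the sources used here. Expected counts were rounded. Symbols matched 35051 of 35168 IDs, and the other 117 held 0.238% of counts.

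Genotypes were compared per day (6 libraries), and days and interactions over 18 libraries, with edgeR 4.0.16 in R 4.3.3 (filterByExpr, TMM, quasi-likelihood test, no covariate). All 8 members passed the filter. Lengths were centred on each library's median and tested with limma 3.58.1. LSM8 to LSM1 ratios were tested by exact permutation and, as an addition after seeing the data, by exact sign flips within replicate numbers. The edgeR and length tests were checked on simulated data, with larger count changes than the genotype folds of the Lsm genes. That check does not cover folds of their size, and the ratio tests were not simulated.

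The members, lists and tests were chosen with earlier results of these data known. The text names the 8 members, USB1, from each partner list up to 3 genes with the smallest padj per genotype comparison, and the genes with the most similar profiles, of which 1 is not reported here. Replicates differed by more than counting noise. Deviations of same-numbered mutant and WT libraries correlated at 0.24, 0.11 and 0.20 at D0, at 0.11, 0.18 and 0.32 at D16, and at 0.13, −0.039 and 0.25 at D30, so numbers from the titles were taken to pair libraries at D0 and D16 only. Alternatives were RLE scaling, other count filters, DESeq2 1.42.0, limma-voom, limma on TPM, lengths as offsets, padj under 0.05, the fit over 18 libraries, the replicate block and each library left out.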

Additional observations from a re-analysis of the deposited data

Results flagged for a closer look

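Genes were listed here because the interaction test over all 18 libraries found their genotype difference to differ between days at an adjusted p under 0.1. Among the Lsm genes this was LSM4 from D16 to D30 (log2 interaction of −0.61). Among the named partner genes it was SSB (0.65), PRPF3 (0.66) and SNRPB (0.91) from D0 to D16. From D16 to D30 it was DCP1A (0.53), PATL1 (0.57) and LSM10 (1.05) upward, and SSB (−0.67), LARP7 (−0.78), EFTUD2 (−0.48), SNRPB (−0.92) and SNRPD1 (−0.82) downward. The D16 libraries enter both steps, so the 2 values of a gene are not independent.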

How the results depend on the processing

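Of the single-gene results under an alternative, 550 kept their direction and side of the threshold, 48 no longer passed, 10 newly passed and 28 changed sign, the last all among folds not called, apart from LSM6 between D30 and D16 in WT cells. With padj under 0.05, 227 genes were called at D0 (432 at 0.1), 1801 at D30 (2933 at 0.1) and 661 for the interaction from D0 to D16 (1281 at 0.1), and the Lsm genes higher in the mutant were 1 at D16 and 0 at D30, with 0 lower for the interaction from D16 to D30. With the fit over all 18 libraries 185 genes were called at D0 and 4892 at D30. With the replicate block, 2 Lsm genes and 1718 genes in all were called at D0, and beside LSM7 at D16 the block changed no other count of Lsm calls. With transcript lengths as offsets 176 genes were called at D0 and 663 for the interaction from D0 to D16. The Lsm genes higher were then 0 at D30 and 0 between D30 and D16 in WT cells, with 0 lower for the interaction from D16 to D30, and LSM6 had folds of 0.0069 at D16, and of −0.38 in mutant and −0.069 in WT cells between D30 and D16. A minimum of 5 CPM in 3 libraries gave 1 Lsm gene higher between D30 and D16 in mutant cells. Limma on log2(TPM + 0.5) called 227 genes at D0, with 5 Lsm genes higher at D16 (beside 2107 genes higher in all) and 0 at D30 (beside 718). It gave −0.057 for LSM1, −0.049 for LSM3, −0.063 for LSM5 and −0.10 for LSM6 at D0, 0.13 for LSM6 at D16, and −0.16 for LSM1 and −0.18 for LSM3 at D30, where limma-voom gave −0.0028 for LSM3. The log2 ratio of LSM8 to LSM1 from expected counts differed by 0.0228 between genotypes at D0, by 0.358 between D16 and D0 and by −0.341 between D30 and D16 in WT cells. The causes of these changes were not tested.

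With 1 library left out, counts of all genes called ran from 116 to 393 at D0, from 2450 to 5778 at D16, from 1452 to 2958 at D30 and from 602 to 2207 for the interaction from D0 to D16. Lsm genes higher ran from 0 to 4 at D16, from 0 to 1 at D30, from 1 to 2 between D16 and D0 in WT cells, from 0 to 1 between D30 and D16 in either genotype and from 0 to 1 for the interaction from D0 to D16. Lsm genes lower ran from 1 to 3 between D16 and D0 in WT cells and from 0 to 3 for the interaction from D16 to D30. Folds ran at D0 from −0.074 to 0.24 for LSM3, from −0.091 to 0.20 for LSM5, from −0.19 to 0.24 for LSM6 and from −0.0034 to 0.20 for LSM8, at D16 from −0.033 to 0.092 for LSM1 and from −0.19 to 0.027 for LSM6, and at D30 from −0.29 to 0.43 for LSM3, from −0.15 to 0.021 for LSM4, from −0.56 to 0.12 for LSM5 and from −0.28 to 0.069 for LSM7. Depth limits D30 most, where the shallowest library held 817 counts over the 8 genes.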

Other observations

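The partner lists also moved along the differentiation, as counted at an adjusted p under 0.1. The Sm core genes were lower at D30 than at D16 in 7 of 7 cases in mutant cells (median log2 fold change of −2.02) and in 7 of 7 in WT cells (−1.56). From D0 to D16, 0 of 7 were called in mutant cells and 4 of 7 were lower in WT cells. Of the U6 processing, modification and recycling factors, 5 of 10 were lower and 1 higher at D16 than at D0 in mutant cells, and 7 of 10 lower and 1 higher in WT cells. Of the 16 tri-snRNP genes, 10 were lower and 2 higher at D30 than at D16 in mutant cells, and 8 lower and 2 higher in WT cells. The decapping list was mixed at that step, with 4 of 11 lower and 3 higher in mutant cells, and 6 lower and 1 higher in WT cells. Of all genes tested, 34.7% were higher and 35.1% lower at that step in mutant cells. In WT cells these shares were 31.6% and 35.1%. From D0 to D16, 36.9% were higher and 36.0% lower in mutant cells, and 37.0% higher and 39.3% lower in WT cells. USB1 fell from D0 to D16 by 0.67 ± 0.14 in mutant cells (padj = 0.000453) and by 0.51 ± 0.14 in WT cells (padj = 0.00423).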
